A study of Rattus norvegicus with 18 samples.

Results

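The genes described here are those that make, move, break down and sense prostaglandins, in rat bone marrow mesenchymal stem cells (MSCs). They were taken by name: Ptgs1, Ptgs2, Ptges, Ptgis, Hpgd, Slco2a1, Ptger2, Ptger3, Ptger4 and Ptgfr. Of these 10 names, 9 had a row among the 32623 genes of each deposited table, and Ptgis, the gene of prostacyclin synthase, was not analysed here. RNA was sequenced from 18 libraries in 6 groups of 3. The groups were miR-337-/- (KO) MSCs under cyclic mechanical stretch (KO CMS), KO MSCs given fetal bovine serum (KO FBS), KO MSCs kept in serum starvation (KO SSt), and wild-type MSCs under the same conditions (WT CMS, WT FBS and WT SSt). All came from SD rats aged 2 months and were at passage 3, and after 8 h without serum they received 10% stretch, serum or continued starvation for 24 h as labelled, while the study's methods give a shorter treatment. No label ties the 3 libraries of a group to separate rats or cultures, so p-values measure the spread between these libraries, which may be technical. WT and KO libraries were deposited as separate tables, so a genotype difference in level cannot be told apart from a difference between the tables.

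Prostaglandins are short-lived lipid signals. Phospholipases free arachidonic acid from membranes, the cyclooxygenases encoded by Ptgs1 and Ptgs2 turn it into the unstable intermediate PGH2, and the microsomal synthase encoded by Ptges converts PGH2 to prostaglandin E2. The signal ends when the transporter Slco2a1 takes the prostaglandin into the cell and the dehydrogenase Hpgd oxidises it. Prostaglandin E2 is sensed by receptors that include those encoded by Ptger2, Ptger3 and Ptger4, and prostaglandin F2-alpha by that of Ptgfr. In bone marrow stroma, prostaglandin E2 is known as a product of inflamed and mechanically loaded cells, and it acts on bone formation and on neighbouring immune cells.

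Libraries held 56083000 to 71847969 counts. Of 10 markers of MSCs and stroma, 9 had a row and 8 reached 1 FPKM (fragments per kilobase of gene, scaled to library size) in every library, but Lepr, the leptin receptor by which the study defines its MSCs, was at 0 in all WT CMS and WT SSt libraries and at most 0.0700 FPKM elsewhere. Of 10 markers of macrophages and blood cells, 9 reached 1 FPKM in every library and Cd163 was at 0 in all CMS libraries. None of the 4 endothelial markers with a row and none of 4 mast cell markers reached 1 FPKM in all 3 libraries of any group. The macrophage and blood markers' summed FPKM was 4048 to 4374 in KO CMS, 4011 to 4930 in KO FBS and 2153 to 2254 in KO SSt, against 5992 to 6314 in WT CMS, 6217 to 6584 in WT FBS and 3614 to 3761 in WT SSt. In these bulk libraries, fewer cells of a type and less RNA per cell cannot be told apart. The row of Mir337 held 0 counts in every library of both genotypes, so it does not check the labels. KO FBS replicate 1 stood apart: its mean correlation was 0.965 with the other KO FBS libraries and 0.966 with the KO CMS libraries. Its level of Mki67, a marker of dividing cells, was 5.06 FPKM against 14.8 and 17.1 in the other KO FBS libraries. For the 9 genes with a row, tests whose call changed without it are given both ways. Means, ranges, ratios and the values of other genes include it unless stated.

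A mature product of the deleted microRNA gene and the promoter windows of 3 genes on which the results turn are shown first, since these genes differed most between the genotypes in their response to treatment. The sequences are those of RefSeq on the rat assembly GRCr8, where 9 of the 10 names had a promoter window of 300 bases. Mature rno-miR-337-3p lies at chr6:134321201-134321223 on the plus strand, with its seed, bases 2 to 8, in capitals.
rno-miR-337-3p: uUCAGCUCcuauaugaugccuuu
The Ptgs2 window lies at chr13:64713813-64714112 on the plus strand, the Ptges window at chr3:34586938-34587237 on the minus strand and the Slco2a1 window at chr8:112467489-112467788 on the plus strand. Capitals mark an E-box (CACGTG) in Ptgs2, a TEAD motif (GGAATG, read on the other strand) in Ptges and overlapping TATA motifs (TATAA, read on both strands) in Slco2a1.
Ptgs2 promoter: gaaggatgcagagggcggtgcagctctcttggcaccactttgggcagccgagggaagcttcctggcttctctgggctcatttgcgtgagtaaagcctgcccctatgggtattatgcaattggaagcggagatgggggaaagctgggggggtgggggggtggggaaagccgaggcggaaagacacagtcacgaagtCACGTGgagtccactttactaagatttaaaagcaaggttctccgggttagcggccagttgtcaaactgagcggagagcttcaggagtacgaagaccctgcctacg
Ptges promoter: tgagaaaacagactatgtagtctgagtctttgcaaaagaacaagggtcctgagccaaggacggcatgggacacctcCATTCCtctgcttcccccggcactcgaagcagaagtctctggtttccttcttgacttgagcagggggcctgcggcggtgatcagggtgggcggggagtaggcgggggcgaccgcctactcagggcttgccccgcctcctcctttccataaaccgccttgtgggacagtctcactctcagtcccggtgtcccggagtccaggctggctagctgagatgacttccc
Slco2a1 promoter: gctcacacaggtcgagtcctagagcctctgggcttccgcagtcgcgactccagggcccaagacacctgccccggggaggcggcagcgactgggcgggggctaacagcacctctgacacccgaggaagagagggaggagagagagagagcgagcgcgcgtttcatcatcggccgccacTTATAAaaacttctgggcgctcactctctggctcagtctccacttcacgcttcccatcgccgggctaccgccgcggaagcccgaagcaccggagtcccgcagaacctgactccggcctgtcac
With both strands searched, the E-box was present in 6.42% of the 33469 promoter windows of the annotation, the TEAD motif in 14.2% and the TATA motif in 26.2%. Among the 9 windows, the E-box was also found in Hpgd, the TATA motif also in Ptgs1, and the CRE core (TGACG, in 21.2% of all windows) in Hpgd alone. Neither the AP-1 motif (TGANTCA, 7.33% of all windows) nor the NF-kB motif (7.51%) matched in any of them, which says only that these letters are not in the windows.

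Ptgs2, the inducible cyclooxygenase, was the most variable gene of the set together with Ptges. WT MSCs held a high level under starvation and a far lower one with serum or stretch, while KO MSCs held an intermediate level in all conditions. In KO cells its level was 87.4, 149.9 and 153.4 FPKM under CMS, 187.7, 84.5 and 71.8 in FBS and 245.6, 211.6 and 191.9 in SSt. In WT cells it was 48.2, 40.0 and 39.6 FPKM under CMS, 53.6, 50.5 and 52.5 in FBS and 787.1, 835.4 and 811.2 in SSt. The 3 WT SSt libraries lay far above all others, the KO SSt libraries came next, and the KO CMS and KO FBS libraries overlapped each other but lay above every WT CMS and WT FBS library.

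The log2 fold change of Ptgs2 in WT cells was -4.28 for CMS over SSt (SE 0.0758) and -3.99 for FBS over SSt (SE 0.0748), with adjusted p of 9.36e-11 and 1.23e-10 in edgeR's quasi-likelihood test. In KO cells neither change passed the test: it was -0.62 for CMS over SSt (SE 0.370, adjusted p = 0.176 in edgeR) and -0.84 for FBS over SSt (SE 0.372, adjusted p = 0.0787). Both depended on KO FBS replicate 1. Without it, edgeR gave -0.62 for CMS (adjusted p = 0.0256), -1.43 for FBS (adjusted p = 0.000924) and 0.81 for CMS over FBS (adjusted p = 0.0368), which was 0.22 with all libraries (adjusted p = 0.728) and -0.03 without KO FBS replicate 3. The difference between the genotypes' responses was 3.66 for CMS (SE 0.417, adjusted p = 7.04e-06) and 3.16 for FBS (SE 0.414, adjusted p = 4.82e-05), and the FBS difference was 2.57 without KO FBS replicate 1. By level, KO was lower than WT under SSt (log2 fold change -1.98, SE 0.296) and higher under CMS (1.68, SE 0.294) and in FBS (1.18, SE 0.290, or 0.59 without KO FBS replicate 1), and all of these passed. In WT cells Ptgs2 was also lower under CMS than in FBS, by a small step of -0.28 (adjusted p = 0.0312 in edgeR) that did not pass when any of WT CMS replicates 2 and 3 or WT FBS replicates 1, 2 and 3 was left out (adjusted p = 0.0585 to 0.101).

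Ptges, the synthase that commonly works with Ptgs2, had the same order of groups. Its level in KO cells was 125.7, 191.9 and 208.9 FPKM under CMS, 269.3, 114.3 and 84.1 in FBS and 456.8, 357.9 and 321.9 in SSt. In WT cells it was 23.2, 17.1 and 14.7 FPKM under CMS, 32.0, 29.7 and 28.0 in FBS and 773.0, 751.2 and 774.4 in SSt. Every KO CMS and KO FBS library was above every WT CMS and WT FBS library, and KO FBS replicate 1 and KO CMS replicate 1 were again the high and the low library of their groups.

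In WT cells the Ptges log2 fold change was -5.41 for CMS over SSt (SE 0.153) and -4.71 for FBS over SSt (SE 0.148), with adjusted p of 1.15e-09 and 2.29e-09 in edgeR. It also fell further under CMS than in FBS, by 0.70 on the log2 scale (SE 0.133, adjusted p = 0.013). KO cells gave -0.999 for CMS over SSt (SE 0.412, adjusted p = 0.062 in edgeR) and -1.21 for FBS over SSt (SE 0.414, adjusted p = 0.0316). The CMS change passed without KO FBS replicate 1 (-0.998, adjusted p = 0.00307) or KO FBS replicate 3 (-0.997, adjusted p = 0.0314). The FBS change was -1.89 without KO FBS replicate 1 and did not pass without KO FBS replicate 2 or 3 or KO SSt replicate 1 or 2 (adjusted p = 0.0567 to 0.102). CMS over FBS in KO was 0.21 (adjusted p = 0.773 in edgeR), 0.89 without KO FBS replicate 1 (adjusted p = 0.0295) and -0.10 without KO FBS replicate 3. The responses differed between the genotypes by 4.42 for CMS (SE 0.487, adjusted p = 5.56e-06) and 3.52 for FBS (SE 0.479, adjusted p = 6.19e-05), which was 2.83 without KO FBS replicate 1. KO lay below WT under SSt (-1.09, SE 0.331, adjusted p = 0.0139 in edgeR, and 0.0552 without KO SSt replicate 3), and above it under CMS (3.33, SE 0.362) and in FBS (2.43, SE 0.348, or 1.74 without KO FBS replicate 1). Of 4 platelet markers, Pf4 alone reached 1 FPKM in all 3 libraries of any group, at 413.9 to 430.8 FPKM in KO CMS, 503.2 to 898.3 in KO FBS and 545.7 to 684.4 in KO SSt, against 480.6 to 519.3 in WT CMS, 519.3 to 536.7 in WT FBS and 1509 to 1615 in WT SSt. Like Ptgs2 and Ptges it was highest in WT SSt. The other platelet markers, Itga2b, Gp9 and Ppbp, did not average highest there, and were at most 0.462, 0.211 and 1.20 FPKM in any library. The macrophage and blood markers did not move as one. In WT, 5 of the 9 tested rose and 3 fell with CMS over SSt, and 5 rose and 2 fell with FBS over SSt. Over all tested genes, 34.6% rose and 32.3% fell with CMS, and 33.7% and 32.7% with FBS. Lyz2, a macrophage lysozyme and 61.3 to 79.2% of the markers' sum, averaged lowest in WT under SSt, as did Ptprc, Cd68, Csf1r and Tyrobp. Cd14, a receptor of bacterial products, instead averaged 163.5 FPKM in WT CMS and 212.6 in WT FBS against 558.1 in WT SSt. Adgre1, a macrophage surface receptor, likewise averaged 21.0 FPKM in WT CMS and 40.6 in WT FBS against 52.1 in WT SSt. In KO, unlike Ptgs2 and Ptges, both markers had their lowest average under SSt. Cd14 averaged 192.3 FPKM in KO CMS, 245.8 in KO FBS and 158.1 in KO SSt, and Adgre1 67.45, 63.0 and 2.97. Of the 9 macrophage and blood markers tested, 5 had a CMS response more positive in KO than in WT and 2 a more negative one, and for FBS 6 and 0. Over all tested genes these shares were 21.6% and 23.2% for CMS and 18.5% and 17.2% for FBS. The part of these markers in the levels of Ptgs2 and Ptges was not tested.

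Ptgs1, the cyclooxygenase that most tissues make constantly, fell with serum and with stretch in both genotypes. In KO cells it measured 55.99, 55.3 and 52.1 FPKM under CMS, 49.0, 55.5 and 58.6 in FBS and 132.8, 125.4 and 131.7 in SSt. In WT cells it measured 78.2, 78.3 and 77.1 FPKM under CMS, 73.3, 69.7 and 69.7 in FBS and 144.2, 136.9 and 133.0 in SSt. All SSt libraries were above all CMS and FBS libraries. The fall with CMS was -1.15 in KO (SE 0.0583, adjusted p = 6.89e-07 in edgeR) and -0.85 in WT (SE 0.0353, adjusted p = 1.53e-08), and with FBS -1.20 in KO (SE 0.0584) and -0.997 in WT (SE 0.0354). It was slightly deeper in KO, by -0.29 for CMS (SE 0.0683, adjusted p = 0.00284). The FBS difference of -0.19 (adjusted p = 0.0403 in edgeR) was fragile, since it did not pass when any one of KO FBS replicate 1 or 2, KO SSt replicate 1 or 3, WT CMS replicate 2, WT FBS replicate 1 or 2 or WT SSt replicate 2 or 3 was left out (adjusted p = 0.0509 to 0.0997). Ptgs1 was lower in KO than in WT under CMS (-0.45), in FBS (-0.35) and, by the smallest margin, under SSt (-0.16, adjusted p = 0.0133 in edgeR, not passed without KO SSt replicate 2 or WT SSt replicate 1, adjusted p = 0.0666 and 0.0654). The WT difference of CMS over FBS was 0.15 (adjusted p = 0.0339) and was lost without any of WT CMS replicates 1, 2 and 3, WT FBS replicates 2 and 3 or WT SSt replicate 2 (adjusted p = 0.0533 to 0.107).

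**Figure D1:**
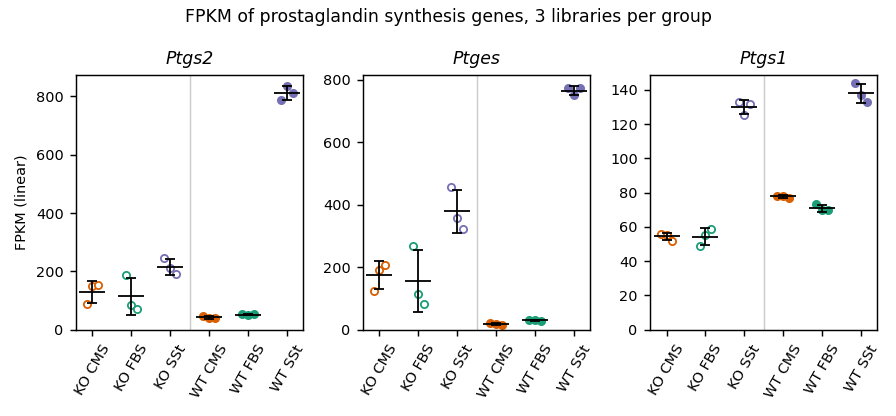
FPKM (linear axis) of Ptgs2, Ptges and Ptgs1 in each library, with the 3 KO groups left of the 3 WT groups; open points are KO libraries, filled points WT libraries, and bars the mean and SD of 3 libraries. Ptgs2 and Ptges reached 811.2 and 766.2 FPKM on average in WT SSt, and KO CMS and KO FBS lay above WT CMS and WT FBS for both, while Ptgs1 was highest under SSt in both genotypes.

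FPKM is scaled by gene length, so levels can be set against each other within a library. Ptgs2 exceeded Ptgs1 in all KO libraries, with a mean ratio of 2.41 ± 0.740 in KO CMS, 2.19 ± 1.43 in KO FBS (1.37 without KO FBS replicate 1) and 1.66 ± 0.197 in KO SSt (SD, n = 3 each). In WT cells it was 0.547 ± 0.0596 in CMS, 0.737 ± 0.0148 in FBS and 5.89 ± 0.371 in SSt, so that Ptgs1 was the more abundant cyclooxygenase message in WT cells given serum or stretch, and Ptgs2 in the other 4 groups. The ratio of Ptges to Ptgs2 was 1.36 ± 0.0789, 1.32 ± 0.134 and 1.74 ± 0.101 in KO CMS, KO FBS and KO SSt, against 0.427 ± 0.0546, 0.573 ± 0.0351 and 0.945 ± 0.0422 in WT CMS, WT FBS and WT SSt. Its libraries did not overlap between the genotypes in any condition (exact permutation test, two-sided, p = 0.1 each, the smallest that 3 libraries against 3 allow, and 0.111 after Benjamini-Hochberg adjustment over 21 ratio contrasts).

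**Figure D2:**
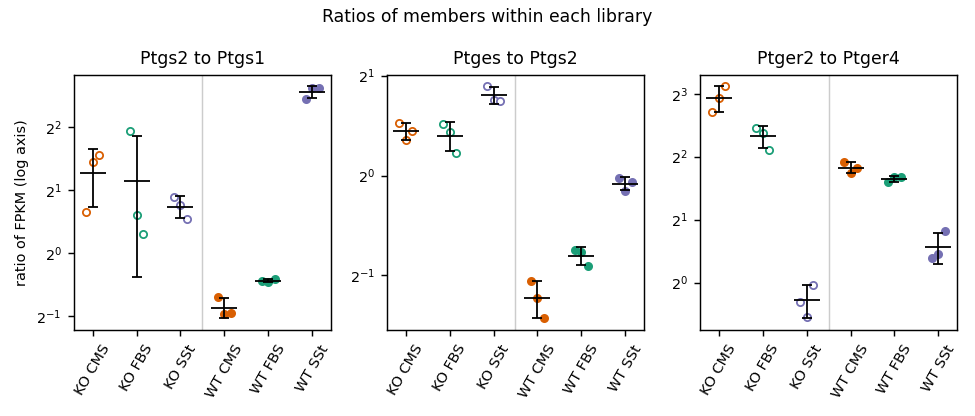
Ratios of FPKM within each library (log axis) for Ptgs2 to Ptgs1, Ptges to Ptgs2 and Ptger2 to Ptger4, with KO groups left of WT groups, open points for KO, filled for WT, and bars for the mean and SD of 3 libraries. Ptges to Ptgs2 was above 1 in every KO library and below 1 in every WT library, and Ptger2 to Ptger4 was lowest under SSt in both genotypes.

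The transporter Slco2a1, which carries prostaglandins into the cell for breakdown, was weakly expressed and responded in opposite directions to serum in the 2 genotypes. It measured 3.73, 3.09 and 3.24 FPKM in KO CMS, 5.61, 7.16 and 8.43 in KO FBS and 4.32, 4.35 and 4.50 in KO SSt. In WT it measured 1.20, 1.17 and 0.912 FPKM in CMS, 2.98, 2.33 and 2.65 in FBS and 7.58, 7.94 and 6.93 in SSt. WT FBS and WT CMS lay below WT SSt without overlap, whereas KO FBS lay above KO SSt without overlap. With FBS it rose in KO (log2 fold change 0.74, SE 0.127, adjusted p = 0.00097 in edgeR) and fell in WT (-1.53, SE 0.121, adjusted p = 1.83e-06), and the difference between these responses was 2.29 (SE 0.186, adjusted p = 1.01e-06). With CMS the change was -0.28 in KO (SE 0.127, adjusted p = 0.088, and 0.0249 or 0.0412 without KO FBS replicate 1 or 3) and -2.80 in WT (SE 0.128, adjusted p = 3.13e-08), and the genotypes differed by 2.53 (SE 0.189, adjusted p = 2.24e-07). Both genotypes had less Slco2a1 under CMS than in FBS, by -1.02 in KO (SE 0.128, adjusted p = 0.00176) and -1.27 in WT (SE 0.124, adjusted p = 0.000527). KO was below WT under SSt (-0.84) and above it under CMS (1.68) and in FBS (1.44). By the deposited coordinates, whose build is not known, Slco2a1 shares its place with a gene model on the opposite strand that was listed at 0 throughout.

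Hpgd, the enzyme that inactivates prostaglandins, was low but detected in every library. It ranged from 0.209 to 0.731 FPKM in KO CMS, 0.544 to 1.06 in KO FBS and 0.587 to 1.05 in KO SSt, with 26 to 117 counts per KO library. In WT it ranged from 0.442 to 0.721 FPKM in CMS, 1.235 to 1.502 in FBS and 0.340 to 0.826 in SSt. It passed the filter in WT because of the WT FBS libraries, where it is highest, so its rise in WT FBS over WT SSt (log2 fold change 1.02, SE 0.322, adjusted p = 0.018 in edgeR) is no independent result. It was not tested within KO, and no difference between the genotypes passed, with 95% intervals from -1.51 to 0.26 in FBS, -0.999 to 0.82 under CMS and -0.56 to 1.23 under SSt.

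Ptger2 encodes the EP2 receptor, which raises cyclic AMP on binding prostaglandin E2. It was the receptor with the widest range: it rose with serum and with stretch in both genotypes, and more in KO, from a lower starved level. It measured 32.2, 35.4 and 35.5 FPKM in KO CMS, 25.2, 21.0 and 18.3 in KO FBS and 4.42, 3.83 and 4.70 in KO SSt, against 25.0, 21.3 and 23.8 in WT CMS, 19.6, 19.2 and 19.3 in WT FBS and 8.21, 9.37 and 10.6 in WT SSt. KO CMS was above all other groups and KO SSt below them. For CMS over SSt the change was 3.10 in KO (SE 0.141, adjusted p = 3.87e-07 in edgeR) and 1.29 in WT (SE 0.0909, adjusted p = 7.81e-07), and these rises differed by 1.82 (SE 0.171, adjusted p = 1.51e-06). For FBS over SSt it was 2.38 in KO (SE 0.138) and 1.01 in WT (SE 0.0906), with 1.38 between them (SE 0.170, adjusted p = 2.92e-05). CMS exceeded FBS by 0.72 in KO (SE 0.130, adjusted p = 0.00855), and in WT by 0.28 (adjusted p = 0.0845, and 0.0408 or 0.046 without WT SSt replicate 1 or 3). KO was lower than WT under SSt (-1.20, SE 0.123), higher under CMS (0.62, SE 0.118) and not past the test in FBS (0.19, 95% interval -0.06 to 0.44, adjusted p = 0.274). Of the 9 macrophage and blood markers tested, 6 rose and 2 fell with CMS over SSt in KO, and 5 rose and 3 fell in WT. Over all tested genes, 30.8% rose and 30.7% fell in KO, and 34.6% rose and 32.3% fell in WT. With FBS over SSt, 7 of these markers rose and 0 fell in KO, and 5 rose and 2 fell in WT, against 30.3% and 29.5% of all tested genes in KO and 33.7% and 32.7% in WT. Without Lyz2 the summed FPKM of the macrophage and blood markers was 1149 to 1301 in KO CMS, 1281 to 1537 in KO FBS and 672.2 to 728.9 in KO SSt, against 1316 to 1326 in WT CMS, 1419 to 1499 in WT FBS and 1397 to 1406 in WT SSt, and their part in the changes of Ptger2 was not tested.

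Ptger4, which encodes the EP4 receptor, also coupled to cyclic AMP, had no treatment contrast that passed in either genotype. Its range was 4.08 to 4.94 FPKM in KO CMS, 4.04 to 4.59 in KO FBS and 4.81 to 5.60 in KO SSt, against 6.38 to 6.77 in WT CMS, 6.04 to 6.47 in WT FBS and 6.04 to 6.88 in WT SSt. The 95% intervals of the log2 fold change ran from -0.39 to 0.17 for CMS over SSt and from -0.52 to 0.03 for FBS over SSt in KO, and from -0.18 to 0.21 and from -0.28 to 0.11 in WT. KO was lower than WT under CMS (-0.47, adjusted p = 0.00151 in edgeR), in FBS (-0.49, adjusted p = 0.00195) and under SSt (-0.35, adjusted p = 0.00929). Ptger2 was 7.61 ± 1.09 times the level of Ptger4 in KO CMS, 5.01 ± 0.608 in KO FBS and 0.823 ± 0.148 in KO SSt, against 3.54 ± 0.213 in WT CMS, 3.13 ± 0.0964 in WT FBS and 1.48 ± 0.246 in WT SSt (FPKM ratio, SD, n = 3 each). Ptger3, the gene of the EP3 receptor, which lowers cyclic AMP, had 0 counts in 17 libraries and 15 in KO FBS replicate 3, so it was not detectable at this depth in 17 of 18 libraries. A count of 0 allows up to 3 counts in a library, for counting error only.

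Ptgfr encodes the receptor of prostaglandin F2-alpha, which signals through calcium. It was 19.6 to 24.0 FPKM in KO CMS, 16.9 to 18.4 in KO FBS and 12.6 to 14.1 in KO SSt, against 24.0 to 25.5 in WT CMS, 22.0 to 24.4 in WT FBS and 17.97 to 19.65 in WT SSt. SSt was the lowest condition in both genotypes, without overlap. It rose with CMS by 0.79 in KO (SE 0.0913, adjusted p = 8.45e-05 in edgeR) and 0.34 in WT (SE 0.0507, adjusted p = 0.000201), and the rises differed by 0.45 (SE 0.107, adjusted p = 0.00293). It rose with FBS by 0.46 in KO (SE 0.0911) and 0.26 in WT (SE 0.0507), and this difference of 0.21 did not pass (adjusted p = 0.14). KO was lower than WT under SSt (-0.60) and in FBS (-0.39). Under CMS the difference of -0.15 did not pass (adjusted p = 0.137), and it was -0.24 without KO CMS replicate 1 (adjusted p = 0.0121 in edgeR). The KO difference of CMS over FBS, 0.33 (adjusted p = 0.0441), did not pass when any KO library other than KO FBS replicate 1 was left out (adjusted p = 0.0544 to 0.132).

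**Figure D3:**
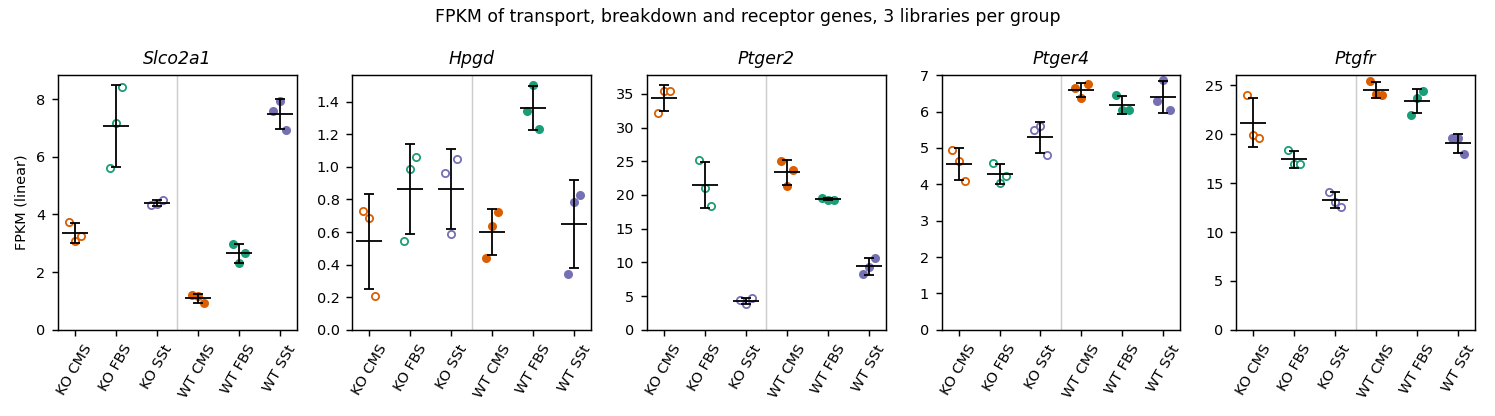
FPKM (linear axes, one scale per gene) of Slco2a1, Hpgd, Ptger2, Ptger4 and Ptgfr in each library, with KO groups left of WT groups, open points for KO, filled for WT, and bars for the mean and SD of 3 libraries. Slco2a1 averaged 7.07 FPKM in KO FBS and 2.65 in WT FBS, and Ptger2 34.4 in KO CMS and 4.32 in KO SSt.

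Adding Ptger1, Ptgir, Tbxa2r and Ptgdr2 to the receptors above gave 8 prostanoid receptor genes with rows. Their summed FPKM was 96.7 ± 1.20 in KO CMS, 76.1 ± 6.48 in KO FBS and 53.8 ± 2.43 in KO SSt, against 84.4 ± 3.15 in WT CMS, 77.3 ± 1.54 in WT FBS and 68.3 ± 1.65 in WT SSt (SD, n = 3 each). Ptger2 made up 35.6% of this sum in KO CMS, 28.2% in KO FBS and 8.04% in KO SSt, against 27.7% in WT CMS, 25.1% in WT FBS and 13.8% in WT SSt. Ptgir, the prostacyclin receptor, held the largest share under SSt, with 48.0% in KO and 41.1% in WT, and also in KO FBS, with 31.6%. Ptgfr held 21.9 to 30.2% in every group.

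Within KO, 2 of the 7 genes tested rose and 1 fell with CMS over SSt, where 30.8% and 30.7% of all 12888 tested genes rose and fell. With FBS over SSt, 3 rose and 2 fell, against 30.3% and 29.5% of all genes. For CMS over FBS, 2 were higher and 1 lower, against 6.73% and 8.09%. Within WT, 2 of the 8 genes tested rose and 4 fell with CMS over SSt, against 34.6% and 32.3% of all 12916 tested genes, and 3 rose and 4 fell with FBS over SSt, against 33.7% and 32.7%. The FBS rises include that of Hpgd, which passed the filter through WT FBS and is no independent result. Hpgd also enters the WT medians given below. For CMS over FBS in WT, 1 was higher and 3 lower, against 3.91% and 5.03%. Since most tested genes passed against SSt, the counts there are near the background and the sizes of the changes carry the description. The median log2 fold change over the genes tested was -0.28 for CMS and -0.24 for FBS in KO and -0.50 and -0.54 in WT, beside medians of all tested genes between -0.0016 and 0.02. CMS and FBS were each compared with the same SSt libraries, so the 2 contrasts are not independent. The KO counts for CMS depended on KO FBS libraries: without KO FBS replicate 1, 6 of 7 genes passed for CMS over SSt and 5 for CMS over FBS, and 5 passed for CMS over SSt without KO FBS replicate 3. The WT count for CMS over FBS was 2 without any one of WT CMS replicates 2 and 3 or WT FBS replicates 2 and 3.

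Between genotypes, 0 of the 8 tested genes were higher and 7 lower in KO than in WT under SSt, where 24.2% of all 13317 tested genes were higher and 23.2% lower. In FBS 3 were higher and 3 lower, against 13.5% and 12.3% of all genes, and under CMS 4 were higher and 2 lower, against 18.7% and 21%. The response to CMS was more positive in KO for 5 genes and more negative for 1, against 21.6% and 23.2% of all genes, and the response to FBS for 4 and 1, against 18.5% and 17.2%. The median difference of the CMS response over the 8 genes was 1.14 on the log2 scale, beside -0.05 over all tested genes, and for FBS 0.80 beside -0.01. Ptgs2, Ptges, Slco2a1 and Ptger2 differed by more than 2-fold in both responses.

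**Figure D4:**
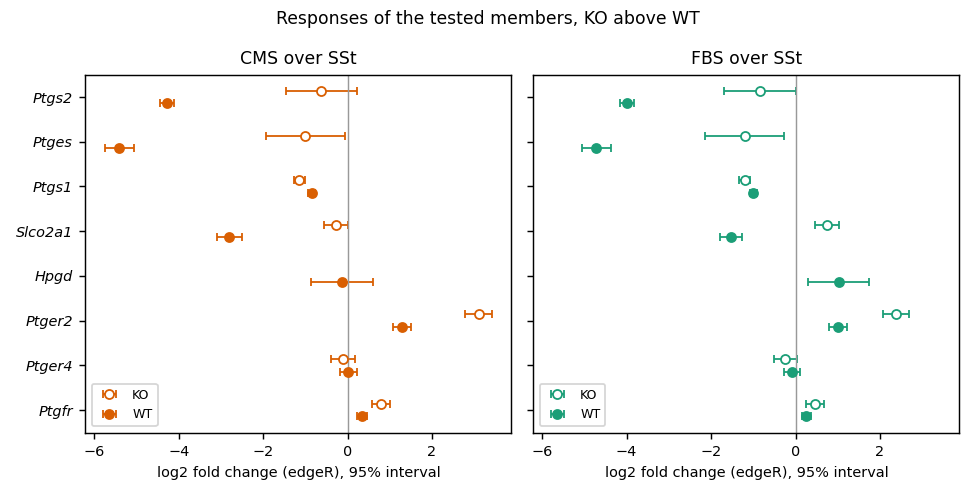
Log2 fold change of each tested gene for CMS over SSt (left) and FBS over SSt (right), with the 95% interval from edgeR, KO (open) drawn above WT (filled); Hpgd was tested in WT alone. Ptgs2 and Ptges lie between -5.41 and -3.99 in WT and between -1.21 and -0.62 in KO, and Ptger2 lies further right in KO than in WT.

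Genes with the pattern most like these were sought over all 18 libraries, as the smallest root mean square difference of centred log2(FPKM + 1) among 9001 genes with a mean of at least 5 FPKM (9002 for Slco2a1). For Ptgs2 the nearest were the cytokine Lif (0.151), the inflammasome sensor Nlrp3 (0.294) and Phlda1 (0.367). Lif averaged 11.5 FPKM in KO CMS, 11.5 in KO FBS and 26.0 in KO SSt, against 4.24 in WT CMS, 5.50 in WT FBS and 84.1 in WT SSt. Those nearest to Ptges were the cytokine Il6 (0.471), the arginase Arg1 (0.509) and the chemokine Cxcl3 (0.551), with Ptgs2 at place 6 (0.712), while Ptges stood at place 41 among the genes nearest to Ptgs2. Nearest to Slco2a1 were the ectoenzyme Enpp3 (0.313), the sulfatase Sulf1 (0.315) and the chemokine Cxcl6 (0.339). These are descriptions over libraries that share treatment and genotype, and carry no test.

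Upstream and beside these genes, 42 further genes of prostanoid and leukotriene metabolism were listed in 5 groups, of which 39 had a row. With CMS over SSt, 12 of 26 tested rose and 7 fell in KO, and 11 of 27 rose and 9 fell in WT. With FBS over SSt, 12 of 26 rose and 5 fell in KO, and 12 of 27 rose and 13 fell in WT. These shares stand beside the same background percentages as above. With CMS, 4 of the 26 genes in KO and 5 of the 27 in WT were under 1 FPKM in every library of one of the groups compared, and so passed the filter through groups where they are higher. All of these passed the test, 3 as rises and 1 as a fall in KO and 4 and 1 in WT. With FBS over SSt the same held for 3 genes in KO, all of them rises. In WT it held for 5 genes with FBS, 4 rises and 1 fall. The counts for both treatments and the medians are therefore descriptions and no independent result. The median log2 fold change for CMS over SSt was 2.02 in KO and 0.07 in WT for phospholipases, 1.26 and -0.205 for other prostanoid enzymes, -0.19 and 0.20 for export and breakdown, 0.55 and 0.16 for other receptors and -1.1 and 2.65 for the lipoxygenase branch, beside -0.0016 and 0.02 over all tested genes.

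Among 10 phospholipases and related lipases, several of which supply arachidonic acid, 5 of 8 tested rose and 1 fell in KO with CMS over SSt, and 3 of 7 rose and 2 fell in WT. Over all tested genes, 30.8% rose and 30.7% fell in KO, and 34.6% and 32.3% in WT. The listed rises include 2 in KO (Mgll and Pla2g5) and 1 in WT (Mgll) of genes under 1 FPKM in every SSt library of that genotype. The most abundant of the list, Pla2g7, a secreted enzyme that cleaves platelet-activating factor, was at 365 ± 2.70 FPKM in KO CMS, 196 ± 19.3 in KO FBS and 41.9 ± 2.96 in KO SSt, against 296 ± 14.5 in WT CMS, 203 ± 9.47 in WT FBS and 156 ± 13.2 in WT SSt (SD, n = 3 each). Its rise with CMS was 3.23 on the log2 scale in KO and 0.90 in WT, and these responses differed by 2.34 (SE 0.105, adjusted p = 9.53e-09 in edgeR). The largest change was that of Mgll, the lipase that releases arachidonic acid from 2-arachidonoylglycerol, at 51.9 ± 2.11 FPKM in KO CMS, 11.5 ± 3.81 in KO FBS and 0.706 ± 0.114 in KO SSt, against 24.1 ± 3.11 in WT CMS, 19.6 ± 1.99 in WT FBS and 0.480 ± 0.301 in WT SSt. The log2 fold change of Mgll for CMS over SSt was 6.29 in KO (SE 0.268) and 5.59 in WT (SE 0.308). It was under 1 FPKM in every SSt library and passed the filter through the CMS and FBS groups, so this rise is no independent result. Pla2g2a, a secreted phospholipase named here after its values were seen, measured 426.4 to 517.3 FPKM in KO CMS, 421.5 to 652.0 in KO FBS and 6.68 to 15.9 in KO SSt, against 57.4 to 84.9 in WT CMS, 111.5 to 139.9 in WT FBS and 61.4 to 66.7 in WT SSt. Its response to CMS was 5.62 in KO (SE 0.376, adjusted p = 2.99e-06) and 0.07 in WT (SE 0.131, adjusted p = 0.673), so that the responses were 5.56 apart (SE 0.385, adjusted p = 1.23e-07).

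Of 11 other prostanoid enzymes, 5 of 8 tested rose and 1 fell with CMS in KO, and 1 rose and 4 fell in WT. Over all tested genes, 30.8% rose and 30.7% fell in KO, and 34.6% and 32.3% in WT. The KO rises include 1 gene (Akr1c14) under 1 FPKM in every KO SSt library, and the WT falls 1 (Hpgds) under 1 FPKM in every WT CMS library. The most abundant of these enzymes was Akr1b8, an aldo-keto reductase, at 1628 ± 174 FPKM in KO CMS, 939 ± 334 in KO FBS and 537 ± 16.0 in KO SSt, against 868 ± 35.6 in WT CMS, 569 ± 24.7 in WT FBS and 1183 ± 43.0 in WT SSt. It rose with CMS in KO (1.71, SE 0.230, adjusted p = 0.000204 in edgeR) and fell in WT (-0.47, SE 0.0413, adjusted p = 3.9e-06), and these changes were 2.19 apart (SE 0.247, adjusted p = 6.56e-06). Akr1c14, another aldo-keto reductase, was at 1.43 to 3.75 FPKM in KO CMS, 2.28 to 4.10 in KO FBS and at most 0.191 in KO SSt, against 0.488 to 0.788 in WT CMS, 0.746 to 1.06 in WT FBS and 0 in all WT SSt libraries. It was too low to test within WT, and since it passed the filter through KO CMS and KO FBS its values are given as a description. In the export and breakdown group, 1 of 5 rose and 2 fell with CMS in KO, and 2 rose and 1 fell in WT, beside the same shares of all tested genes. There Abcc4, a pump that carries prostaglandins out of the cell, rose with CMS by 1.72 in KO (SE 0.109) and 1.51 in WT (SE 0.0804), and the difference of 0.22 did not pass (adjusted p = 0.227). Ptgr1, a reductase of prostaglandin breakdown and the most abundant of that group, was at 53.3 ± 3.46 FPKM in KO CMS and 116 ± 4.45 in WT CMS, lower in KO by -1.06 on the log2 scale (SE 0.0741, adjusted p = 7.35e-08 in edgeR). It averaged 65.7 FPKM in KO FBS against 104.7 in WT FBS, and the genotypes lay closer under SSt, at 61.6 in KO and 70.0 in WT.

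Of the other receptors, 2 were tested. Ptger1, the gene of the EP1 receptor, rose with CMS by 0.84 in KO (SE 0.126) and 0.75 in WT (SE 0.0751). Ptgir averaged 28.8 ± 2.08 FPKM in KO CMS, 24.1 ± 3.09 in KO FBS and 25.8 ± 1.79 in KO SSt, against 21.2 ± 0.643 in WT CMS, 18.4 ± 0.712 in WT FBS and 28.1 ± 0.779 in WT SSt. It fell with CMS in WT (-0.43, SE 0.0410) and did not pass in KO (0.27, adjusted p = 0.063 in edgeR). In the lipoxygenase branch, which turns arachidonic acid into leukotrienes, 0 of 3 tested rose and 3 fell with CMS in KO, while 4 of 5 rose and 1 fell in WT. Over all tested genes, 30.8% rose and 30.7% fell with CMS in KO, and 34.6% and 32.3% in WT. Of those 4 rises, 3 (Alox5, Alox12 and Cysltr1) were of genes under 1 FPKM in every WT SSt library, and of the 3 falls in KO 1 (Alox5) was of a gene under 1 FPKM in every KO CMS library. Cysltr1, a leukotriene receptor, was at 0.481 ± 0.227 FPKM in KO CMS, and at 2.22 ± 0.227 in WT CMS against 0.112 ± 0.0728 in WT SSt. Its log2 fold change for CMS over SSt in WT was 4.18 (SE 0.382) and is no independent result, since it passed the filter through WT CMS and WT FBS. Lta4h, the hydrolase that makes leukotriene B4 and the most abundant of this branch, fell with CMS in KO (-0.41, SE 0.0722) and in WT (-0.89, SE 0.0387). Several of these genes, among them Alox5ap and Cysltr1, are also made by macrophages, whose markers are given above, and their part in these values was not tested.

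**Figure D5:**
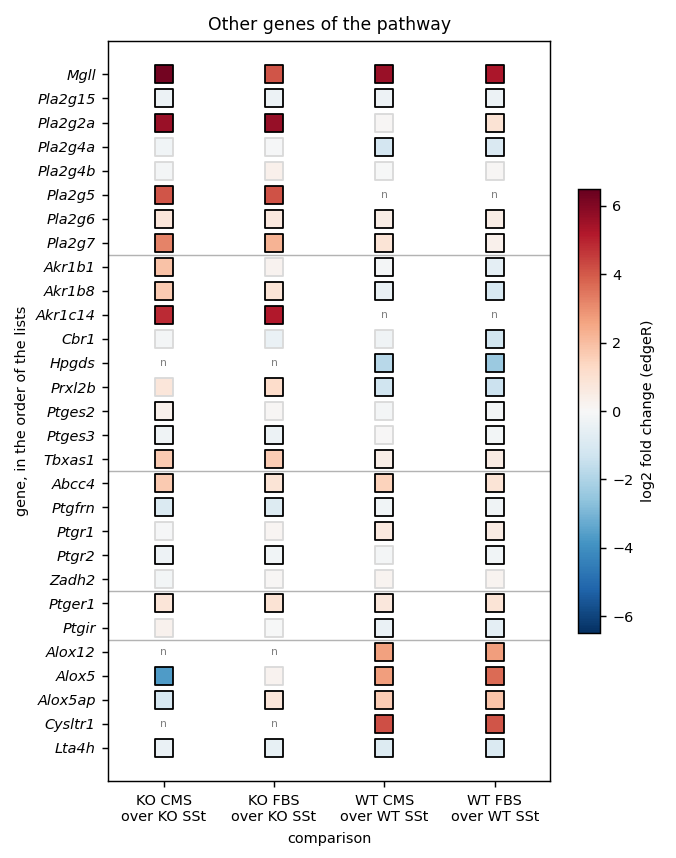
Log2 fold change in edgeR (colour) of the tested genes of 5 lists, separated by grey lines from top to bottom: phospholipases, other prostanoid enzymes, export and breakdown, other receptors, lipoxygenase branch; columns are KO CMS, KO FBS, WT CMS and WT FBS, each over SSt of its genotype. Black frames mark an adjusted p under 0.05 and n marks genes not tested; Pla2g2a rose by over 5 in both KO columns, while Mgll (all columns) and Cysltr1 (WT) were under 1 FPKM in every SSt library and passed the filter through CMS and FBS.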

How the data were processed

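RNA was sequenced from 18 libraries of cultured rat MSCs, 3 in each of 6 groups. The authors deposited 1 table for WT and 1 for KO with a count and an FPKM per gene and library. The sources used here do not name the RNA-seq aligner or counter. Bowtie 0.12.2 and mm10, a mouse build, appear in the submitters' processing notes, while the gene IDs are rat Ensembl IDs. The build behind the deposited gene coordinates is thus not known. Those coordinates were used only to look for gene models that overlap the genes described here. Whether counting used strand is not stated. The deposited FPKM is 1e-04 wherever the count is 0.

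Libraries held 56083000 to 71847969 counts. For genes with at least 1 FPKM in at least 3 libraries, counts were fitted with edgeR 4.0.16 (quasi-likelihood F test, TMM scaling) in R 4.3.3, in a fit of the 9 libraries of each genotype and, for KO over WT and for differences between responses, in a fit of all 18. P-values were adjusted by Benjamini-Hochberg over all tested genes, and passed means an adjusted p under 0.05. Intervals are 95%. Fold changes are on the log2 scale. The tests were run on counts simulated with the same spread setting for every gene and no outlying library. That check does not cover a library such as KO FBS replicate 1.

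The genes and lists were chosen with earlier results of these data known. Of each list, the gene with the highest mean FPKM and the gene with the largest change of at least 2-fold that passed are named, with exceptions marked. Alternatives were DESeq2 1.42.0, RLE size factors, no filter, a filter of 5 FPKM, limma 3.58.1 on log2(FPKM + 1), a replicate block and leaving out each library. Leaving out KO FBS replicate 1 together with KO CMS replicate 1 was added after seeing the data.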

Additional observations from a re-analysis of the deposited data

Results flagged for a closer look

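The difference between the genotypes' responses (KO minus WT, log2 scale, edgeR) passed the test for 6 of the 8 genes tested. For CMS it was more positive in KO for 5 and more negative for 1, against 21.6% and 23.2% of all tested genes. For FBS it was more positive for 4 and more negative for 1, against 18.5% and 17.2%. For the CMS response it was 3.66 for Ptgs2 (SE 0.417), 4.42 for Ptges (SE 0.487), 2.53 for Slco2a1 (SE 0.189), 1.82 for Ptger2 (SE 0.171), 0.45 for Ptgfr (SE 0.107) and -0.29 for Ptgs1 (SE 0.0683). For the FBS response it was 3.16 for Ptgs2 (SE 0.414), 3.52 for Ptges (SE 0.479), 2.29 for Slco2a1 (SE 0.186), 1.38 for Ptger2 (SE 0.170) and -0.19 for Ptgs1 (SE 0.0683). A constant difference between the WT and KO tables cancels in these values. The KO SSt libraries enter all of them, and their levels of Ptgs2, Ptges, Slco2a1 and Ptger2 were below those of WT SSt.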

How the results depend on the processing

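Of 218 recounts of members past the test, 209 stayed within 1.5 times, and of 1676 recomputed log2 fold changes 1592 kept their direction and side of the threshold, 45 lost the call, 27 gained it and 12 changed sign, none of which had passed with all libraries kept. Counts that moved were those of KO CMS over KO SSt, 3 to 6 over the fits without 1 library and 6 without both KO FBS replicate 1 and KO CMS replicate 1, of KO CMS over KO FBS, 2 to 5 and 5, and of WT CMS over WT FBS, 2 to 6. With those 2 KO libraries left out, a choice made after seeing the data, CMS over FBS in KO was 1.03 for Ptgs2 (adjusted p = 0.000717 in edgeR) and 1.09 for Ptges (adjusted p = 0.00444), and -0.0106 for Ptgs1 (0.10 as the highest of the fits without 1 library).

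Signs changed for Hpgd in KO CMS over WT CMS (0.35 with the replicate block, and -0.36 to 0.30 without 1 library), for Hpgd in WT CMS over WT SSt (-0.45 to 0.0574), for Ptger4 in WT CMS over WT SSt (-0.00095 without a filter and -0.031 to 0.0629 without 1 library) and for Ptgs2 and Ptges in KO CMS over KO FBS (lowest values -0.0326 and -0.0977); the cause was not tested. No label says whether libraries with the same replicate number were paired. Deviations of same-numbered libraries correlated at -0.137 to 0.146, which cannot decide this, since a weak shared effect could look the same. Under the replicate block the KO SSt over WT SSt calls of Ptger4 (adjusted p = 0.132) and Ptges (adjusted p = 0.137) and the FBS difference of Ptgs1 (adjusted p = 0.0623) were lost, and Hpgd in WT CMS over WT FBS passed (adjusted p = 0.0474). On log2(FPKM + 1) with limma the median of all genes was -0.11 for the FBS and -0.16 for the CMS difference between genotypes, against -0.01 and -0.05 in edgeR. Low counts limit Hpgd and Ptger3.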
